A study of Homo sapiens with 16 samples.

Results

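The regions described here are 2562 stretches of chromatin marked by acetylation of histone H3 at lysine 27 (H3K27ac) that carried a ChIP-seq peak in every one of 14 peak lists and whose midpoint lay over 50 kb from the nearest transcription start site (TSS) of a protein-coding gene. They were selected on measured values: peaks with a -log10 q-value of at least 2 were merged over the 14 lists into 170159 regions, 18472 of these held a peak in all 14 lists, and the members were those under 8 kb in width and beyond the distance limit (GRCh38, 1 TSS per gene). The cells were K562, an established human line from a chronic myelogenous leukaemia with features of the erythroid lineage. In the fixed arm, chromatin in 7 doubling amounts from 0.31 to 20 µg, measured as its DNA content (DNA_chrom), met a constant 0.25 µg of antibody against H3K27ac, so that the antibody titers were 32, 16, 8, 4, 2, 1 and 0.5 relative to the optimal ratio (titer 1). In the normalized arm, the same 7 amounts of DNA_chrom were incubated with antibody scaled to titer 1. Libraries are named by amount and titer (in the fixed arm 0.31-T32, 0.62-T16, the T8 library, 2.5-T4, 5-T2, 10-T1a and 20-T0.5), and 10-T1a and 10-T1b are the fixed and the normalized reaction of the same composition. Each condition was 1 library, made from diluted K562 chromatin, so the p-values below measure the scatter of libraries around a line, which may be technical. The arms were called against different input libraries, and within the fixed arm the titer and the amount of chromatin cannot be told apart.

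H3K27ac is deposited by the acetyltransferases p300 and CBP and marks nucleosomes at active promoters and active enhancers. Enhancers are bound by transcription factors and can raise transcription of genes far away along the chromosome through looping of the chromatin. In cells of the erythroid and megakaryocyte lineages, many enhancers are bound by GATA factors together with TAL1, RUNX1 and AP-1 family members. The nearest gene is given below as a position only, since an enhancer may act on another gene.

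The lists held 64083 to 82143 peaks at the q-value used, and they do not give the number of sequenced reads, which was not used here. The erythroid marker genes GATA1, TAL1, LMO2, NFE2, GFI1B, HBG1, HBG2, HBZ, TFRC and EPOR each had a peak within 5 kb of the TSS in all 14 lists. None of the 3 neuronal markers had one in any list, and ALB, TTR, PAX5, MS4A1, CD3E and CD8A also had none, whereas CD79A, CD3D and APOA2 had one in all 14 lists and CD4 in 2.

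Not all members lay away from annotated starts. The 50 kb limit was measured from 1 start per gene, and 250 members (9.76%) held at least 1 start of a table of RefSeq promoters: 120 members held another start of a protein-coding gene and 153 held a start of a long noncoding RNA (lncRNA). The regions are therefore called far distal regions, not enhancers. Strength is given as the mean percentile, the rank of a region's strongest peak by fold enrichment among the peaks of a list, averaged over the 14 lists. Of the 12 strongest members, 7 held such a start. The strongest member (mean percentile 99.7) lay at chr9:94164678-94166708 and held the start of MIRLET7A1HG, the host transcript of let-7 microRNAs. The member at chr13:50122062-50128328 (98.4) held a start of DLEU2, the host transcript of miR-15a and miR-16-1. The member at chr21:34885821-34891563 (95.3) held a second start of RUNX1, a transcription factor of definitive haematopoiesis, 161 kb from the start used to measure distance. The 250 bases before these 3 starts are shown because they are rich in CpG, with 27, 21 and 32 CG dinucleotides (capitals), as CpG island promoters are. Sequences are from RefSeq (GRCh38.p14), 5′ to 3′ on the strand of the transcript, at chr9:94166008-94166257 (plus strand), chr13:50125542-50125791 (minus strand) and chr21:34888700-34888949 (minus strand).
MIRLET7A1HG: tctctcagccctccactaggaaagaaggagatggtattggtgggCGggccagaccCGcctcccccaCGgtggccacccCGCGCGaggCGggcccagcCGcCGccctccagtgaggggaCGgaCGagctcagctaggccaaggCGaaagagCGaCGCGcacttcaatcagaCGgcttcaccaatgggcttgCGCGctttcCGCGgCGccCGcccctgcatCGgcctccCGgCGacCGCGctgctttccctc
DLEU2: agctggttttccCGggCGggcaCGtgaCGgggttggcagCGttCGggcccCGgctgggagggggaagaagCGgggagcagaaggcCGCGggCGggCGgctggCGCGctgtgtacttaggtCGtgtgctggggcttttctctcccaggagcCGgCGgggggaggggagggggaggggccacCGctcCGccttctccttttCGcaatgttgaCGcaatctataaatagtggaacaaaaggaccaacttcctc
RUNX1: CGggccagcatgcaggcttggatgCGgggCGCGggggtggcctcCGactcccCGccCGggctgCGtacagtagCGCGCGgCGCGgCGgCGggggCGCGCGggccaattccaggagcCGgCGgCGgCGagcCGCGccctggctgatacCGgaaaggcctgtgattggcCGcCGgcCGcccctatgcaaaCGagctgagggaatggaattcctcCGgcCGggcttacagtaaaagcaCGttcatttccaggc

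Other starts inside members had few CG dinucleotides. The windows before the lncRNAs LINC01132 (chr1:234723792-234724041, plus strand), LOC105374284 (chr3:193837472-193837721, minus strand) and LINC01094 (chr4:78645744-78645993, plus strand) are shown for contrast and held 3, 3 and 2. Capitals mark AGATAA on either strand, the core of GATA sites, and TGANTCA, the core of AP-1 sites. The 3 windows were also picked as examples of such matches, which most windows inside members lacked (shares below).
LINC01132: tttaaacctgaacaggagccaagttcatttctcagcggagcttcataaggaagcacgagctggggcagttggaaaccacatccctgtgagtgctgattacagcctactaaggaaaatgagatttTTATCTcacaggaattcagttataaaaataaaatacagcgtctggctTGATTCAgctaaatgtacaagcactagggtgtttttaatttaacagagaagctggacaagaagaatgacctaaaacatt
LOC105374284: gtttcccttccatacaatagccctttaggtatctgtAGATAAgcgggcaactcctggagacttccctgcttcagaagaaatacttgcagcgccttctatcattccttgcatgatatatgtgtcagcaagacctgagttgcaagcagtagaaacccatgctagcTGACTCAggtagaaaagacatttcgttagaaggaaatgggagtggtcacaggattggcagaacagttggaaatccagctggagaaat
LINC01094: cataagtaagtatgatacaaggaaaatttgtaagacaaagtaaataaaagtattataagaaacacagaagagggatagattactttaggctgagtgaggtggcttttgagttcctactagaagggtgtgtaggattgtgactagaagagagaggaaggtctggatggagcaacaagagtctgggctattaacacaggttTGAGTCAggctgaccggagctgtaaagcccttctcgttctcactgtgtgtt

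Over all 333 promoter windows inside members (250 bases before to 50 after a start), 12.0% held AGATAA on either strand, beside 10.3% of all 34961 windows of the table. TGANTCA was in 10.5% beside 7.68%, TGTGGT, the core of RUNX sites, in 11.7% beside 13.1%, GGAAGT, an ETS core, in 20.1% beside 22.8%, CCACNAG, part of the CTCF motif, in 17.1% beside 14.2%, and the E-box CANNTG in 65.8% beside 68.7%. Among the 172 lncRNA windows inside members, AGATAA was in 14.5%, as in 14.5% of all 12829 lncRNA windows, and TGANTCA in 14.5% beside 10.3%. A match here is a description of letters and was not tested for binding. The observed to expected CpG ratio exceeded 0.6 in 49.5% of the windows inside members, beside 48.9% of all windows and 88.1% of the 5534 windows inside regions within 1 kb of a TSS.

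The members were spread over the genome, with 248 on chromosome 1, 228 on chromosome 6 and 202 on chromosome 3, down to 32 on chromosome 19. On chromosome 6 they made up 20.5% of the regions found in all lists, on chromosome 8 22.04%, and on chromosome 19 2.21%. Their median width was 3050 bp (quartiles 2091 and 4425 bp), close to the 3084 bp of the 8817 regions lying 1 to 50 kb from a TSS and above the 2113 bp of the 5718 regions within 1 kb of one. The median distance to a TSS was 95.6 kb. Between 50 and 100 kb lay 1357 members, between 100 and 200 kb 771, between 200 and 500 kb 305, and beyond 500 kb 129. The body of an annotated gene held 51.3% of the members, and the share fell from 56.6% in the nearest of these bins to 13.95% in the farthest. Their median fold enrichment in 10-T1a was 8.85, 8.83, 9.23 and 9.86 from the nearest to the farthest bin. The 4 farthest were 2 regions on chromosome 22 nearest to OR11H1 (3554 and 2926 kb), 1 on chromosome 11 nearest to RAG2 (1940 kb) and 1 on chromosome 5 nearest to NUDT12 (1830 kb), which lay within 1 kb of a lncRNA start. Just inside the distance limit were regions 50.02 kb from GYPE and 50.05 kb from SYNJ2, and just outside it regions 49.99 kb from EIF2D and 49.95 kb from MICAL2. The widest members, nearest to STH and DSC3, measured 7999 and 7997 bp, and the narrowest regions left out, nearest to TFDP2 and GAPVD1, 8002 and 8008 bp.

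Members often lay in runs. With gaps under 50 kb, 1484 members (57.9%) fell into 542 runs of at least 2. The longest run by number lay on chromosome 6 between SCAND3 and TRIM27 (chr6:28708739-28868636), with 12 members over 160 kb. Their mean percentile ranged from 54.1 to 91.2 and their fold enrichment in 10-T1a from 3.77 to 14.5. A second run of 12 members (chr16:85288310-85516451) covered 228 kb of GSE1, with mean percentiles from 37.5 to 94.2. A run of 10 (chr4:78613664-78719004) lay between ANXA3, an annexin, and BMP2K, a kinase, and a run of 10 (chr3:193830537-193944864) lay 127 to 237 kb from LOC102724877, with mean percentiles up to 96.4 at the member that held the start of LINC02038. Strong and weak members thus stood side by side within each of the 4 runs.

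**Figure D1:**
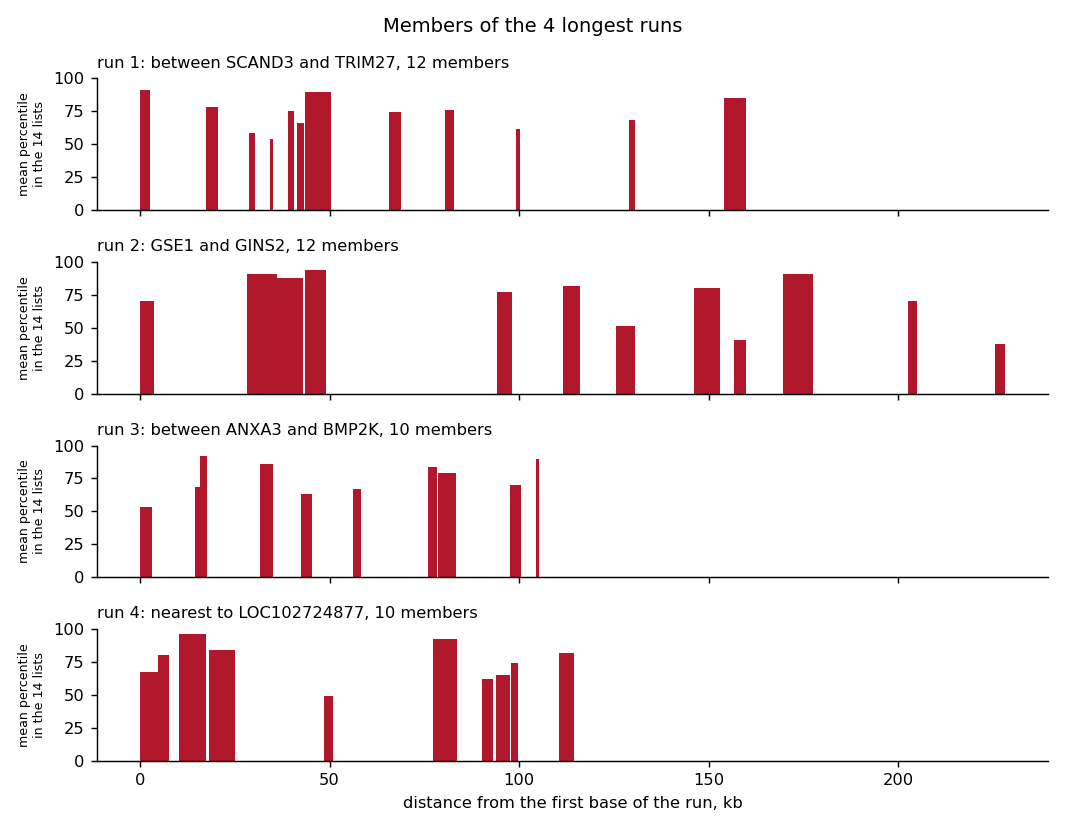
Members of the 4 runs with the most members; the x axis gives distance in kb from the first base of the run, each bar spans 1 member and its height is the mean percentile of its fold enrichment over the 14 lists. Within each run, bars of over 90 stand beside bars of under 60.

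The members lay nearest to 1409 protein-coding genes, of which 81 had at least 5 members. JARID2, a cofactor of Polycomb repressive complex 2, LOC102724877 and MYC had 11 each, and RUNX1 and TBL1XR1, a subunit of the NCoR corepressor complex, had 9. In a list of 70 haematopoietic genes, 21 genes (30.0%) were nearest to a member, 68 members in all, beside 7.05% of all 19974 protein-coding genes. In a lymphoid list, 2 of 18 genes were (RAG2 and LEF1). These lists are small and their genes differ in the size of the surrounding intergenic space, so the shares are given without a test.

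Fold enrichment, the height of the strongest peak of a region over its input, was compared between libraries first. In the fixed arm, the median over the members was 9.65 in 20-T0.5, 9.03 in 10-T1a, 7.72 in 5-T2, 6.89 in 2.5-T4, 6.03 in the T8 library, 5.77 in 0.62-T16 and 5.36 in 0.31-T32. It was thus lower in every library of higher titer. Taken as differences, not as ratios, the steps were smallest among the libraries of titers 8 to 32. In the normalized arm, the medians ran from 8.12 in 2.5-T1 to 10.0 in 20-T1, with a median of 8.53 over the 7 libraries. All 7 were above the 5 fixed libraries of titers 2 to 32, and the ranges of the arms overlapped at the larger amounts of chromatin. The composition made in both arms gave 9.03 in 10-T1a and 9.20 in 10-T1b. Regions within 1 kb of a TSS had higher medians in every library, from 6.57 to 12.1 in the fixed arm and from 9.78 to 12.0 in the normalized arm.

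**Figure D2:**
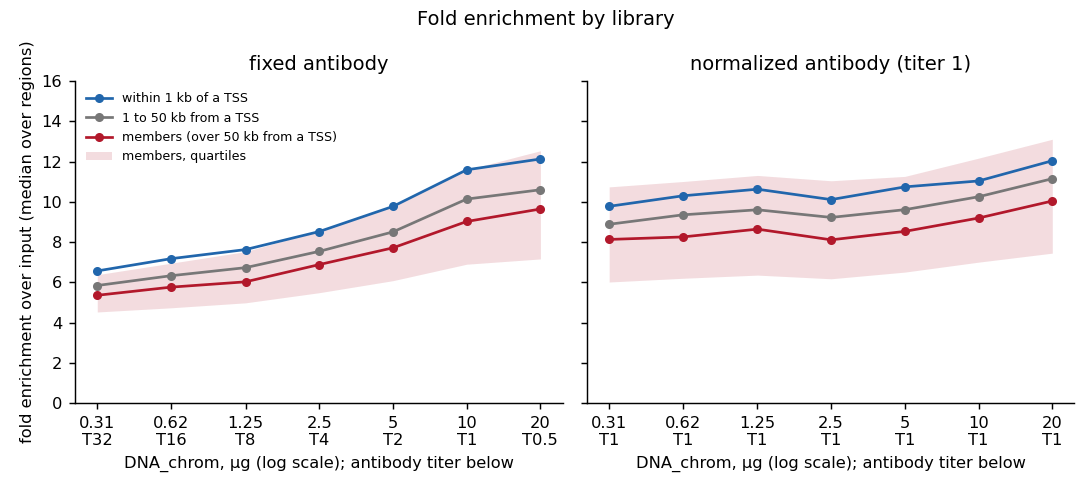
Median fold enrichment over input in each library (y axis, linear) against DNA_chrom in µg (x axis, log scale, with the antibody titer under each amount) for the members and for 2 classes of regions nearer to a TSS; the band spans the quartiles of the members. In the fixed arm the members' median rises from 5.36 in 0.31-T32 to 9.65 in 20-T0.5. In the normalized arm it lies between 8.12 in 2.5-T1 and 10.0 in 20-T1.

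A slope of log2 fold enrichment on log2 titer was fitted for each of the 18467 regions found in all lists on chromosomes 1 to 22 and X (limma, Benjamini-Hochberg adjustment over all of them, called at an adjusted p under 0.05). Every tested region had to keep a peak at the highest titer to be in all lists, so regions lost there are not among them. Fold enrichment fell with titer in 1787 of 2562 members (69.8%), beside 72.9% of all regions tested, and rose in none, beside 0.0325% (6 regions). The members' median slope was -0.145, a change of -9.53% per doubling of the titer, beside -0.151 for all regions. After each library was centred on its median over all regions, which removes this common fall, 8 members were called lower and 56 higher, beside 0.455% and 1.75% of all regions. In the normalized arm no member and no region was called on log2 DNA_chrom by limma. An unadjusted p under 0.05 was found in 314 members (12.3%) beside 12.2% of all regions. Most slopes there were above 0, with a median of 0.04 for members and 0.039 for all regions. They were below 0 in 506 of 2562 members, beside 3734 of 18467 regions.

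The difference between the arms was tested as an interaction of arm and log2 DNA_chrom over the 14 libraries. The slope on amount was higher in the fixed arm in 496 members (19.4%), beside 23.5% of all regions, and lower in 3, beside 0.0758%. After centring, 3 members were called lower and none higher by limma, beside 0.0596% and 0.0487% of all regions. The 499 calls in both directions became 314 without 10-T1a, 268 without 20-T0.5 and 233 without 0.31-T1. Among all regions tested, calls of a higher slope in the fixed arm went from 4331 to 2767, 2526 and 2345 in the same order.

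The second readout was the length of each region covered by peaks. In the fixed arm the median covered length of a member was 1984 bp in 20-T0.5, 1970 bp in 10-T1a, 1785 bp in 5-T2, 1439 bp in 2.5-T4, 1068 bp in the T8 library, 954 bp in 0.62-T16 and 762 bp in 0.31-T32. As a share of the region this was 70.1% in 20-T0.5 and 27.9% in 0.31-T32. In the normalized arm the median share ran from 59.5% in 0.31-T1 to 77.8% in 20-T1. The 5 fixed libraries with titers of 2 to 32 reached at most 63.1%, and only 0.31-T1 of the normalized libraries lay within their range. Regions within 1 kb of a TSS kept a larger share, with 42.6% in 0.31-T32 and 73.6% in 20-T0.5.

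**Figure D3:**
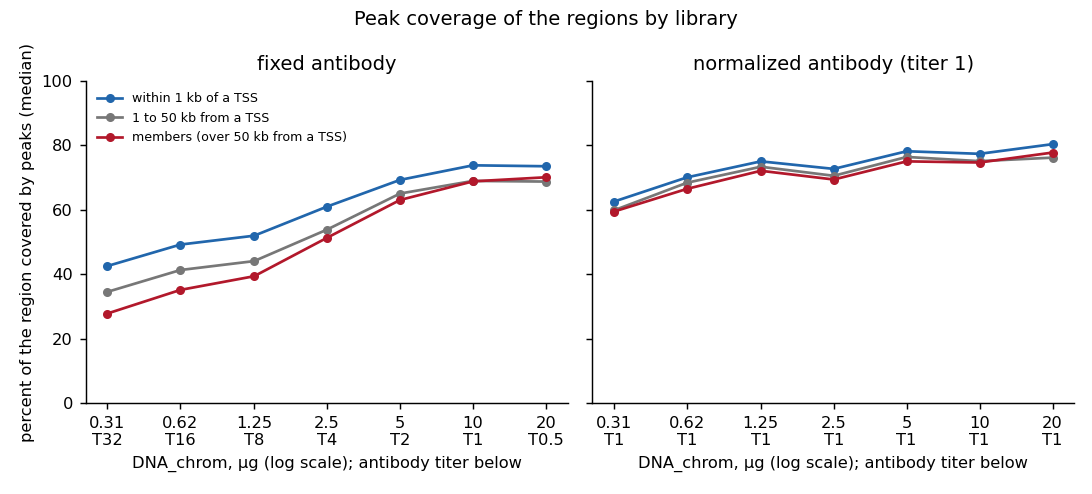
Median percent of a region's length covered by peaks in each library (y axis) against DNA_chrom in µg (x axis, log scale, with the antibody titer under each amount) for the members and for 2 classes nearer to a TSS. The members start lowest of the 3 classes, at 27.9% in 0.31-T32, and meet the 1 to 50 kb class at 10 and 20 µg.

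Covered bases fell with titer in 1849 members (72.2%), beside 60.7% of all regions tested, and rose in 2 (0.0781%), beside 0.0975%. Among the 1370 regions at or over the members' width limit, at any distance from a TSS, they fell in 90.2%. A high share of calls was thus not particular to the members. The median slope was -0.226 for members, -0.169 for regions 1 to 50 kb from a TSS and -0.133 for regions within 1 kb of one. It was -0.140 for the regions at or over the width limit, shallower than for members. After centring, 220 members (8.59%) were called lower and 62 (2.42%) higher, beside 4.01% and 6.36% of all regions, so that the order of the shares in the 2 directions differed between members and all regions. Both readouts fell in 1405 members (54.8%), fold enrichment alone in 382 (14.9%), covered bases alone in 444 (17.3%) and neither in 331 (12.9%). This split was not made for all regions, of which 72.9% fell by fold enrichment and 60.7% by covered bases. It is therefore not a result about the members. In the normalized arm no member or region was called by limma. An unadjusted p under 0.05 was found in 558 members (21.8%) beside 18.8% of all regions. The median slope there was 0.051 for members and 0.042 for all regions. Slopes were below 0 in 306 members, beside 2647 of all regions. The slope of covered bases on amount was higher in the fixed than in the normalized arm in 888 members (34.7%), beside 25.5% of all regions, and lower in 3, beside 0.217%. Of the regions at or over the width limit, 60.4% were called higher and 0.219% lower. After centring, 117 members (4.57%) were called higher and 18 (0.703%) lower, beside 2.16% and 1.41% of all regions. The 891 calls of the uncentred difference became 490 without 20-T1. Among all regions, the calls higher in the fixed arm went from 4715 to 2336.

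**Figure D4:**
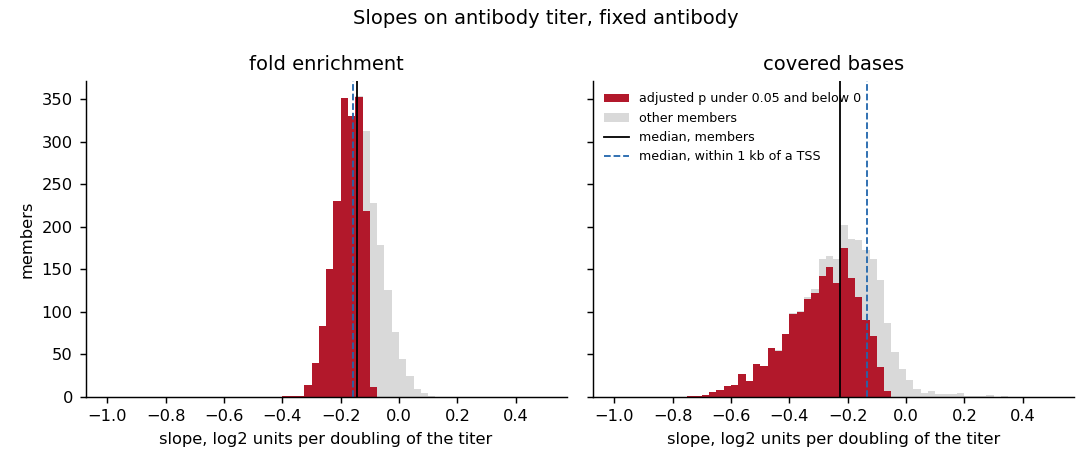
Slopes of the 2562 members on log2 titer in the fixed arm (x axis, log2 units per doubling of the titer; y axis, number of members) for fold enrichment and covered bases; red bars are members called lower, the solid line is the members' median and the dashed line the median of regions within 1 kb of a TSS. The medians nearly coincide for fold enrichment (-0.145 and -0.156) and stand apart for covered bases (-0.226 and -0.133).

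Members were weaker than regions near a TSS, with a median mean percentile of 77.7 beside 86.4. The classes were therefore compared in 3 strata of strength, divided at mean percentiles of 76.8 and 88.4. Covered bases fell in 66.6% of the members, 53.2% of the 1 to 50 kb regions and 32.2% of the regions within 1 kb in the weakest stratum, and in 77.2%, 65.9% and 59.0% in the strongest. The order of the 3 classes was the same in each stratum, while their widths also differed (medians of 2545, 2593 and 1381 bp in the weakest), and the part of width was not tested. Members without another start within 1 kb showed a covered-base fall in 1648 of 2247 (73.3%), those at another protein-coding start in 59 of 102 (57.8%) and those at a lncRNA start in 142 of 213 (66.7%). By fold enrichment the order was the opposite, with falls in 69.1%, 80.4% and 71.8%. These groups also differed in strength, with median mean percentiles of 76.8, 85.0 and 82.2. Among all members, fold enrichment fell in 51.8%, 82.5% and 93.1% from the weakest to the strongest stratum. The other classes showed the same rise with strength. The shares were 38.0%, 76.4% and 93.7% of the 1 to 50 kb regions and 51.2%, 78.5% and 93.4% of those within 1 kb. The part of strength in the order of the groups was not tested.

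The position of the strongest peak also moved. Between 10-T1a and 10-T1b the summit lay within 100 bp in 38.8% of the members and over 1000 bp away in 11.2%. These shares were close in regions 1 to 50 kb from a TSS (42.4% and 9.97%). They differed more in regions within 1 kb of one (52.4% and 2.92%). From 10-T1b to 0.31-T32 the median shift was 280 bp, and 30.8% stayed within 100 bp, beside 236 bp and 32.3% in the 1 to 50 kb class. Within the normalized arm, 39.8% to 42.3% stayed within 100 bp of the 10-T1b summit. In 10-T1b 57.1% of the members held over 1 peak, and 5.54% of the members held a single peak in all 14 lists. In the 1 to 50 kb class these shares were 57.6% and 4.38%.

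Among the strongest members, the MIRLET7A1HG region had a fold enrichment from 11.1 to 32.03 in the fixed arm (median 16.8) and from 19.2 to 24.7 in the normalized arm (median 21.5). Its highest values of all were in 10-T1a and 20-T0.5, and the ranges of the arms overlapped. Its slope on log2 titer was -0.26 ± 0.03 (SE, 7 libraries, limma adjusted p = 2.73e-05), and its slope difference between the arms was 0.23 ± 0.05 (SE, 14 libraries, limma adjusted p = 0.00358). The region in EXOC6 nearest to CYP26C1, a retinoic acid hydroxylase, had values from 6.96 to 24.8 in the fixed arm and from 12.7 to 20.2 in the normalized arm, and its slope of -0.285 was the steepest of the 12. The member in LARP1, which held the start of the lncRNA LOC112267936, had the shallowest slope at -0.12, with values from 10.7 to 19.9 in the fixed and from 16.5 to 27.5 in the normalized arm. Fold enrichment fell with titer in all 12, beside 93.1% of all members in the strongest stratum. In that stratum it also fell in 93.7% and 93.4% of the regions in the classes nearer to a TSS. After centring, the slope of the LARP1 member was 0.03.

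The steepest falls, named for their size, were at other places. The region at chr1:87784557-87787024, 457 kb from LMO4, a LIM-only transcriptional cofactor, had a fold enrichment of 3.63 to 17.7 in the fixed arm (median 12.2) and of 10.5 to 18.8 in the normalized arm (median 13.7). The 3 libraries of titers 8 to 32 lay below all others, and its slope was -0.40 ± 0.06 (SE, limma adjusted p = 3.76e-05). The region in MICAL2, an actin-oxidizing monooxygenase, ran from 5.29 to 23.5 in the fixed arm and from 14.1 to 22.6 in the normalized arm, with a slope of -0.375. The other 4 lay nearest to CEP128, TUSC3, RFPL4B and HTR2A, with slopes of -0.33 to -0.31. In the CEP128 region, inside TSHR, covered bases ran from 216 to 1622 bp in the fixed arm and from 940 to 2225 bp in the normalized arm, with a slope of -0.58. The region nearest to RFPL4B, 610 kb away, went from 5.80 in 0.31-T32 to 21.8 in 20-T0.5, while its values in the normalized arm were 5.03 to 10.4. Its fixed values at 5, 10 and 20 µg thus lay above all 7 normalized values.

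Among the members with the largest slope differences between the arms were a region in CHCHD6 nearest to the semaphorin receptor gene PLXNA1 (0.40 ± 0.06 SE, limma adjusted p = 0.000477), the region nearest to RFPL4B (0.35) and a region in KCNT2, a potassium channel gene (0.34). At PLXNA1 the value was 7.27 in 0.31-T32 and 24.8 in 10-T1a, while the normalized arm ran from 10.6 in 20-T1 to 23.4 in 0.62-T1. The slope on log2 titer was -0.29 in the fixed arm and that on log2 DNA_chrom -0.11 ± 0.05 (SE) in the normalized arm, whose values did not follow the amounts in order. The 3 members with a lower slope in the fixed arm lay nearest to SPN (-0.21), LIPC (-0.20) and TMEM235 (-0.20). At TMEM235 the fixed arm ran from 4.38 in 20-T0.5 to 6.44 in 0.31-T32 and the normalized arm from 5.37 in 0.31-T1 to 11.9 in 10-T1b. These 3 calls had limma adjusted p-values of 0.0318, 0.0279 and 0.0254, and each was lost on leaving out at least 1 library. Without 20-T0.5, 2 members were called lower, and without 0.31-T1, 1 member was.

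**Figure D5:**
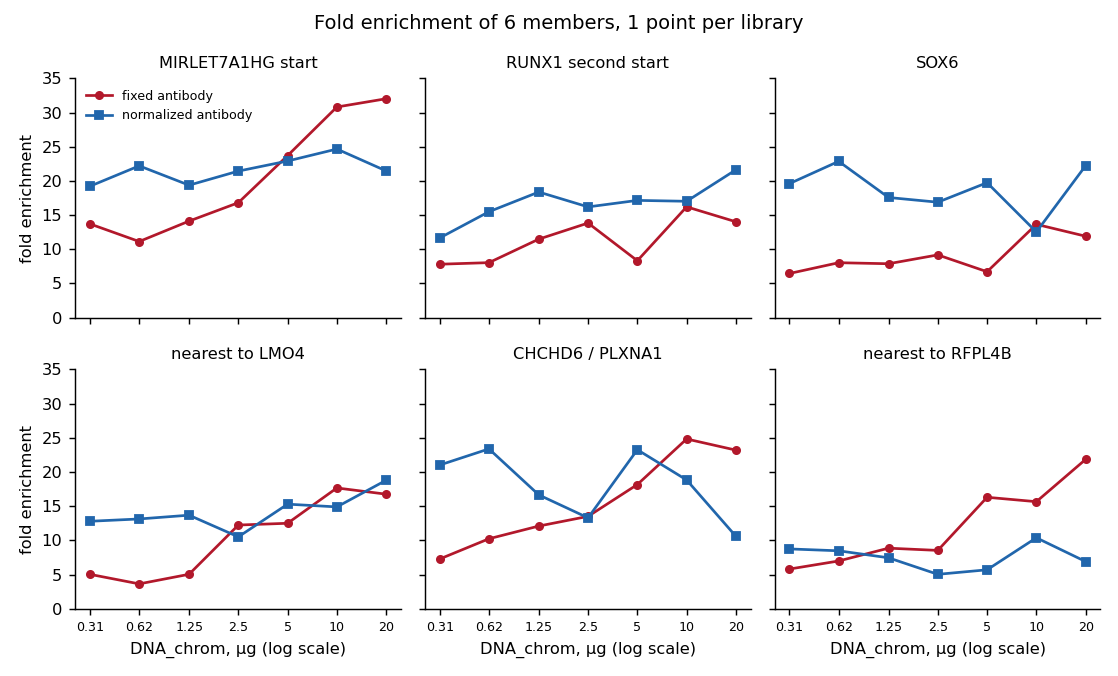
Fold enrichment over input (y axis, linear) of 6 members, 1 point per library, against DNA_chrom in µg (x axis, log scale) for the fixed and the normalized arm. In the MIRLET7A1HG and RFPL4B regions the fixed arm rises above the normalized arm at 10 and 20 µg (32.03 and 21.8 in 20-T0.5), while in the SOX6 region it stays at or below 13.7.

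Of the 68 members nearest to a haematopoietic gene, fold enrichment fell with titer in 44 and rose in none, and covered bases fell in 57. Of all regions tested, 72.9% fell with titer by fold enrichment and 60.7% by covered bases. The counts at single genes below are to be read beside these shares and were not tested against them. The 9 members nearest to RUNX1 fell by both readouts in 9 of 9, at distances of 51.9 to 435 kb, with 4 of them inside the gene. Their fold enrichment in 10-T1a ran from 5.30 to 16.2, and in 0.31-T32 from 3.39 to 7.82. The RUNX1 member at the second start had values of 7.82 to 16.2 in the fixed arm (median 11.5) and of 11.7 to 21.6 in the normalized arm (median 17.0), and its slope was -0.15 ± 0.05 (SE, limma adjusted p = 0.0107). The 11 members nearest to MYC, a growth-promoting transcription factor, lay 59.97 to 822 kb from its start. Fold enrichment fell in 1 of the 11, while covered bases fell in 10. Their values ran from 4.06 to 8.26 in 10-T1a and from 3.58 to 6.65 in 0.31-T32, with mean percentiles of 41.8 to 78.9. MYB, a regulator of haematopoietic progenitors, had 3 members 81.6 to 127 kb away. None of them fell by fold enrichment and all 3 did by covered bases.

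SOX6, a repressor of embryonic globin genes, had 5 members within its gene body, and fold enrichment fell in all 5. The SOX6 member at chr11:16603082-16608515 had a fold enrichment of 6.46 to 13.7 in the fixed arm (median 8.04) and of 12.54 to 22.9 in the normalized arm (median 19.6). Only 10-T1a reached into the range of the normalized arm, above 10-T1b, and its slope was -0.14 ± 0.05 (SE, limma adjusted p = 0.0140). TRIB2, a pseudokinase gene, had 7 members 202 to 287 kb away, of which 4 fell by fold enrichment and 7 by covered bases. The strongest of these ran from 5.36 to 15.04 in the fixed arm and from 10.7 to 17.8 in the normalized arm, with a slope of -0.26. The member nearest to JAK2, the kinase of erythropoietin signalling, had values of 8.51 to 17.6 in the fixed arm and of 13.0 to 14.7 in the normalized arm. Its slope was -0.15 ± 0.04 (SE, limma adjusted p = 0.00121), and the normalized values spanned less than the fixed ones. The strongest member at each of HHEX, MECOM, CCND2, NFIB, ANK1 and ITGA4 had a slope between -0.20 and -0.16 and was called lower, while a weaker member at ANK1 (-0.01) and one at NFIB (-0.09) were not called. The MECOM and strongest NFIB members held other starts of these genes. After centring, the slopes of the RUNX1, SOX6 and JAK2 members described here were 0.009, 0.01 and 0.004, near the common fall of all regions.

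At the low end, chosen after the values were seen, the 12 members of lowest mean percentile lay in only 5 genes, all on chromosomes 22 and 9. BCR held 7 of them, ABL1 2, and MED15, MICAL3 and NUP214 1 each. BCR and ABL1 are the partners of the fusion gene that K562 carries. The 7 BCR members (chr22, within 23246518 to 23281875) had mean percentiles of 0.142 to 22.5, and fold enrichments of 2.25 to 4.37 in the fixed arm and 2.28 to 4.93 in the normalized arm. Their median -log10 q in the normalized arm was 5.28, with a median fold enrichment of 3.12, beside 14.98 and 8.67 for the 2552 members outside BCR and ABL1. Their median slope on log2 titer was -0.007. The copy number of these regions was not measured, and its part in the values was not tested.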

How the data were processed

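Chromatin immunoprecipitation for H3K27ac was sequenced from K562 cells in 14 libraries, 7 per arm. Per the submitters' processing notes, the authors used CASAVA 1.4 and BWA 0.5.9 with hg38, and called peaks per library against an input with MACS2 in Partek Flow. The deposited lists give fold enrichment over the input (a ratio) and -log10 p and q values. Their q values run to 5%. Coordinates were read as GRCh38, since some run past chromosome ends of the earlier build that the study's methods name. The lists hold no read counts, and sequencing depth was not used here.

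Overlapping or touching peaks were merged after those below 2 in -log10 q were dropped (Python 3.11.15, numpy 2.4.6, pandas 2.3.3). A region's value in a library was the log2 fold enrichment of its strongest peak, or the log2 number of bases covered by its peaks. No pseudocount was needed because all regions tested had a peak in every list. Slopes were fitted over the 18467 regions with limma 3.58.1 (R 4.3.3, eBayes with trend, 2-sided, Benjamini-Hochberg) and tested on simulated data. Lines were fitted on log2 titer, log2 DNA_chrom, and their difference between arms. Libraries share only an amount across arms.

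Members, gene lists and tests were chosen with earlier results of these data known. Members named are the 12 strongest, up to 6 called in each direction on titer and 4 on the slope difference by size, up to 12 nearest to a haematopoietic gene, the 4 runs with the most members (gaps under 50 kb), the 4 farthest and those beside each limit. Alternatives changed the distance, width, q and start definitions, the scaling, the region value, the variance model and the libraries used. The input libraries themselves and member sequences other than RefSeq promoter windows were not analysed here, and results for a few genes of these lists are not reported here.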

Additional observations from a re-analysis of the deposited data

Results flagged for a closer look

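The slope of fold enrichment on log2 DNA_chrom differed between the arms in 499 members by the interaction test. It was higher in the fixed arm in 496 (19.4%), beside 23.5% of all regions tested, and lower in 3 (0.117%), beside 0.0758%. By covered bases it differed in 891 members, 888 higher in the fixed arm (34.7%), beside 25.5% of all regions, and 3 lower, beside 0.217%. Of the regions at or over the members' width limit, 60.4% were called higher by covered bases. After centring, no member was called higher by fold enrichment and 4.57% were by covered bases, beside 2.16% of all regions. Among named members, the difference was 0.402 at PLXNA1, 0.349 at RFPL4B and 0.341 at KCNT2. It was -0.212 at SPN, -0.205 at LIPC and -0.204 at TMEM235. The arms were called against different input libraries, and its part in these differences was not tested. No library stood apart from the others of its arm by Dixon's criterion in the summary values tested.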

How the results depend on the processing

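The number of members was 4208 beyond 25 kb, 1205 beyond 100 kb, 1129 with a -log10 q of at least 5 and 655 when noncoding genes counted, and stayed within 1.5 times of 2562 under the other definitions, including every protein-coding start of the promoter table (2192, an alternative chosen after seeing the data). Members without another start within 1 kb, also chosen after seeing the data, gave 1552 calls on titer by fold enrichment and 1648 by covered bases. After centring on the library median, the calls were 64 for the fold enrichment slope on titer, 3 for its difference between arms, 282 for covered bases on titer and 135 for their difference. By percentile within the list the fold enrichment calls were 0 on titer and 0 for the difference. Length-weighted fold enrichment gave 1 call in the normalized arm. Leaving out 1 library gave 1323 to 1789 calls on titer and 233 to 497 for the difference by fold enrichment, 1324 to 1805 and 490 to 1027 by covered bases, and 0 in the normalized arm. Over all 18467 regions, leaving out 1 library gave 10436 to 13473 falls on titer by fold enrichment and 7068 to 10717 by covered bases. Calls of a higher slope in the fixed arm ran from 2345 to 4337 and from 2336 to 5566. With the shared amount as a replicate block, the difference had 500 calls by fold enrichment and 866 by covered bases. The libraries share only that amount. The block changed no call of the 7 members named for this difference, while among the other named members it ended the calls at NOCT and JAK2 (limma adjusted p = 0.0600 and 0.0525) and added one at OR11H1 (0.0324).

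Slopes on titer turned positive after centring for the named members at RUNX1 (0.00943), NUDT12 (0.0220), LARP1 (0.0344), SUMO4 (0.0152), JAK2 (0.00384) and SOX6 (0.0145), and, in percentile units, at RUNX1 (0.252), LARP1 (0.478), SUMO4 (0.481) and JAK2 (0.198). Centring left 11 of the named results on the same side of the threshold and took 30 below it with the same direction, and leaving out 1 library kept the side of the threshold in 351 cases, lost it in 25 and gained it in 2.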

Other observations

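The share of members called was described by distance from a protein-coding start. Between 50 and 100 kb, 66.5% fell with titer by fold enrichment and 67.8% by covered bases, and beyond 500 kb 80.6% and 82.2% did, beside 72.9% and 60.7% of all regions tested. The median mean percentile was 77.0 and 81.4 in these bins. The difference between bins was not tested, and the bins also differ in strength and in the share inside a gene body.

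Fold enrichment ranked the members differently in different libraries. Across the 2562 members, Spearman's rho was 0.589 between 10-T1a and 10-T1b and 0.429 between 0.31-T32 and 10-T1b, where the points of a pair come from the same libraries and are not independent. In regions within 1 kb of a TSS the same values were 0.566 and 0.426, and in regions 1 to 50 kb away 0.685 and 0.533.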
